A study of Mus musculus with 2 samples.

Results

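Solute carriers, the membrane proteins encoded by the Slc genes, were followed across the endothelial cells of the mouse adrenal gland. Members were all symbols of the gene list made of Slc, a family number, the letter a and a member number, with at least 50 UMIs (unique molecular identifiers, each counting 1 captured RNA molecule) summed over the cells of both libraries. Of 350 such symbols among 54838 gene identifiers, 164 reached that limit, 129 had 1 to 49 UMIs and 57 had 0. The 164 stood among 12987 identifiers of any kind with at least 50 UMIs. Slc10a1 with 50 UMIs and Slc25a29 with 51 lay just inside the limit, and Slc39a7 with 49 and Slc27a1 with 48 just outside it. The symbols also took in 5 genes that are not carriers themselves, Slc9a3r1 and Slc9a3r2 (scaffold proteins that bind carriers), Slc4a1ap and Slc7a6os (named after a neighbouring or binding partner) and the pseudogene Slc2a4rg-ps.

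Solute carriers move ions, sugars, amino acids, nucleosides, metals, lactate and vitamins across the plasma membrane and across the membranes of mitochondria and other organelles. In endothelium they set what passes between blood and tissue through the cell, and what the endothelial cell itself takes up. Capillaries of endocrine glands are mostly fenestrated, with pores that are spanned by diaphragms built from the protein Plvap, whereas continuous capillaries lack such pores.

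The libraries held viable CD31+ CD45- cells sorted from adrenal glands of female mice aged 12 weeks, 1 library from wild-type (WT) mice and 1 from mice with the genotype written VEGF/LysM. LysM names Lyz2, a lysozyme gene of myeloid cells, and the series was designed around VEGF-A made by macrophages; the sources used here do not give the allele or how many mice went into a library. With 1 library per group no difference between them has a replicate check, no test was made, and intervals are 95% intervals that cover counting error only. Vegfa was at 5.84 CPM (the count per 1000000 UMIs of the pooled cells, 43 UMIs) in WT against 5.06 CPM (45 UMIs) in VEGF/LysM endothelial cells, and at 0 UMIs in the 89 and 84 myeloid-like cells that passed the gate, which allows up to 11.1 and 6.45 CPM. Since macrophages are mostly removed by the CD45- gate, Vegfa does not check the genotype here.

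Depth differed between the libraries. WT had 6276 barcodes with 8606348 UMIs (median 1174.5 per barcode) and VEGF/LysM 3807 barcodes with 10323972 UMIs (median 2336). After filtering, 5683 WT and 3527 VEGF/LysM endothelial cells remained, and the members took 0.703% and 0.685% of their UMIs. The libraries shared 10 barcodes, 8 of them kept in both. Of the 164 members, 152 had at least 50 UMIs in endothelial cells and could be compared there; 12 did not, among them Slc11a1 and Slc7a8, which were at 0.408 and 0.136 CPM in WT endothelial cells and at 141 and 81.7 CPM in WT myeloid-like cells.

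Clusters were drawn from variable genes with all Slc genes left out, so that the members did not shape the cell classes. Of 19 clusters, 6 had no enriched list among those used for naming and a Plvap level of at least 700 CPM. They were grouped as Plvap-high cells (3950 WT and 2022 VEGF/LysM cells, with Plvap at 1212 and 1424 CPM). Clusters named from markers were 1 capillary-like cluster (775 and 723 cells; Cd36 7958 and 9634 CPM, Plvap 126 and 88.7 CPM), 1 arterial-like cluster (253 and 251 cells; Gja4 419 and 379 CPM, Sox17 1172 and 1304 CPM) and 1 tip-like cluster (448 and 301 cells; Apln 229 and 137 CPM, Kcnj8 306 and 269 CPM). The Plvap-high group is defined by 1 gene's level and is not named fenestrated here: the summed fenestrated marker list was at 12613 and 12572 CPM in it and at 12586 and 12300 CPM in tip-like cells, whose Plvap was 847 and 930 CPM. Another 257 and 230 endothelial cells (4.52% and 6.52%) fell in 6 clusters left outside these classes. Plvap-high cells made up 69.5% of WT and 57.3% of VEGF/LysM endothelial cells, and capillary-like cells 13.6% and 20.5%, so a level over all endothelial cells also carries the mix of classes.

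UMIs were spread unevenly over the members. The 12 members with the most UMIs held 45.1% of all member UMIs in endothelial cells, led by the scaffold gene Slc9a3r2 (698 CPM in WT, 806 CPM in VEGF/LysM), the taurine transporter Slc6a6 (503 and 508 CPM), Slc43a3, known as a purine nucleobase transporter (496 and 459 CPM), the sodium-coupled neutral amino acid transporter Slc38a2 (266 and 216 CPM) and the equilibrative nucleoside transporter Slc29a1 (232 and 185 CPM). These values count captured RNA, and their order is not read as the order of the genes by RNA level.

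A member was said to mark a class when it had at least 20 UMIs there, at least 2-fold the level of the other endothelial cells in each library, and its highest level of the 4 classes in both. By that rule 10 of 152 members marked capillary-like cells (3.94% of all 12279 genes tested did), 7 marked arterial-like cells (background 3.05%), 2 marked Plvap-high cells (background 2.09%) and 1 marked tip-like cells (background 0.814%). Without a fold limit, the class with the highest level was the same in both libraries for 86 members: arterial-like for 34 (22.4%, against 13.9% of all genes tested), capillary-like for 26 (17.1%, against 14.1%), tip-like for 14 (9.21%, against 11.8%) and Plvap-high for 12 (7.89%, against 9.28%). For the other 66 (43.4%, against 50.9% of all genes) it differed between the libraries.

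**Figure D1:**
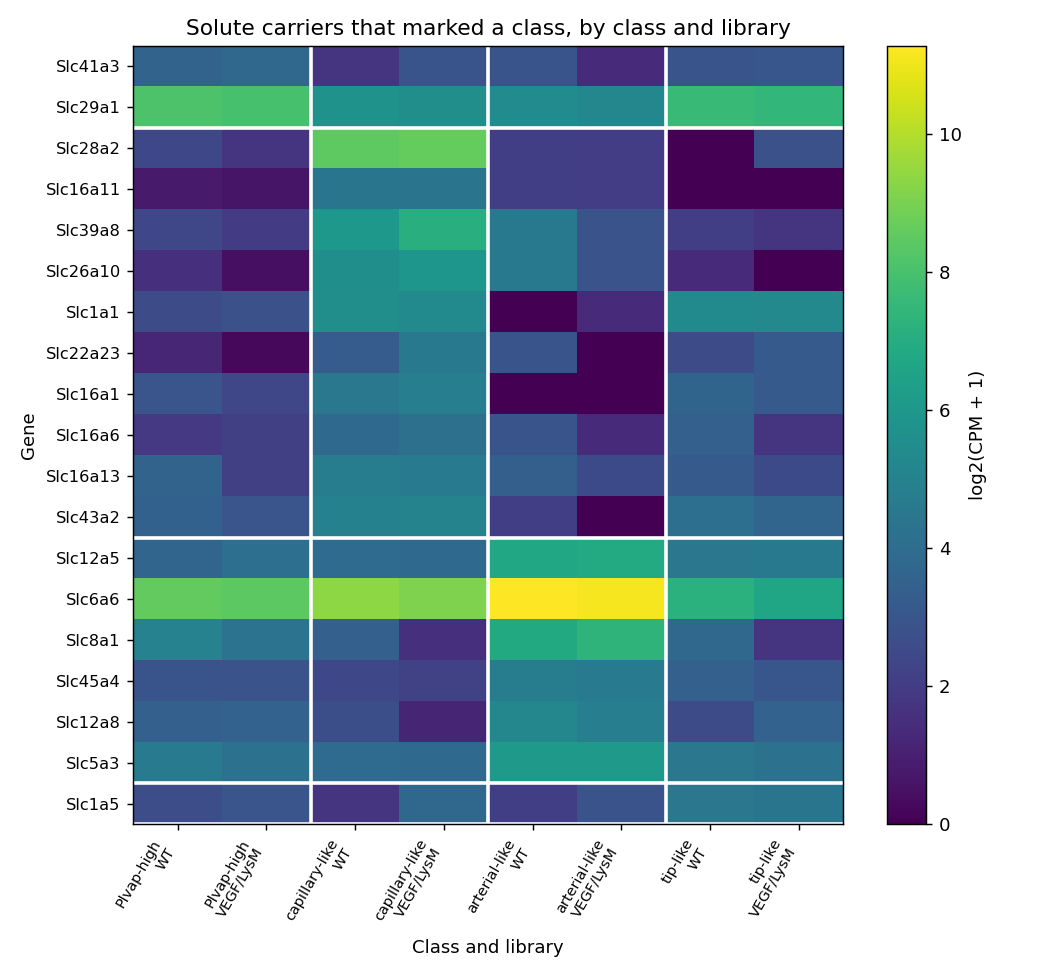
Pooled level, as log2(CPM + 1), of 19 of the 20 members that marked a class (rows, white lines between the classes they marked) in 4 endothelial classes and 2 libraries (columns). The capillary-like block holds 10 genes and the arterial-like block 6; Slc6a6 is bright in every column and brightest in arterial-like cells, at 2481 and 2234 CPM.

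The capillary-like cells stood out by a nucleoside transporter. Slc28a2 encodes a sodium-coupled carrier that concentrates purine nucleosides and uridine in the cell (ENSMUSG00000027219, chromosome 2, 122426477 to 122461137, plus strand, GRCm38). It was at 355 CPM (317 to 396) in WT against 391 CPM (361 to 423) in VEGF/LysM capillary-like cells, against 4.44 and 2.30 CPM in Plvap-high cells, 3.27 and 3.20 CPM in arterial-like cells, and 0 and 5.90 CPM in tip-like cells. The capillary-like level was 33.2-fold (25.5 to 43.7) that of the other endothelial cells in WT and 26.5-fold (21.6 to 32.9) in VEGF/LysM. Capillary-like cells were thus the only class of the 4 with a high level, in both libraries. Their intervals did not overlap those of the other classes. Outside the 4 classes, Slc28a2 was also a leading gene of a small cluster (20 WT and 41 VEGF/LysM cells) whose best list was continuous capillary. With each cell thinned to 1000 UMIs, so that depth was equal, a Slc28a2 UMI was found in 29.3% of WT (24.4 to 34.6) and 31.7% of VEGF/LysM (28.1 to 35.5) capillary-like cells, in 0.340% and 0.105% of Plvap-high cells, and in 1.25% and 0% of myeloid-like cells. Unthinned shares in capillary-like cells were 30.8% and 50.6%, at median depths of 902 and 1726 UMIs; thinning left out 451 WT and 83 VEGF/LysM cells that were shallower.

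The solute carriers of capillary-like cells that followed by fold were of several substrate types. Slc16a11, of the monocarboxylate family, was at 20.0 CPM in WT against 18.97 CPM in VEGF/LysM capillary-like cells, 14.3-fold and 15.3-fold the other endothelial cells, and at 0 UMIs in tip-like cells of both libraries. Slc39a8, an importer of zinc and manganese, was at 64.3 and 133 CPM (8.65-fold and 14.7-fold). Slc26a10, of the anion exchanger family, was at 48.8 and 59.97 CPM (6.85-fold and 17.4-fold); its gene overlaps B4galnt1, which reached no more than 6.55 CPM in any class. The organic-ion family gene Slc22a23 had 8.87 and 22.6 CPM (3.58-fold and 13.7-fold), resting on 8 WT UMIs. Its call was lost when cells were thinned to 1000 UMIs and with a minimum of 100 UMIs.

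Monocarboxylate carriers made up 4 of these 10. Of 6 members of that group measured, 4 marked capillary-like cells: besides Slc16a11 these were Slc16a1, which carries lactate and pyruvate (22.2 and 27.5 CPM, 3.25-fold and 5.71-fold), Slc16a6 (13.3 and 17.1 CPM, 3.18-fold and 5.41-fold) and Slc16a13 (25.5 and 23.9 CPM, 2.32-fold and 5.42-fold). Slc16a1 had 0 UMIs in arterial-like cells of both libraries. Slc16a6 shares its position with Amz2 and Arsg, and its fold fell below 2 in at least 1 alternative (smallest log2 fold 0.84). Of the 4, only Slc16a1 kept its call when cells were thinned to 1000 UMIs. The calls of Slc16a11 and Slc16a6 were also lost with a minimum of 100 UMIs, and that of Slc16a13 without doublet removal.

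Amino acid carriers gave 2 capillary-like marks among 15 members measured. Slc1a1, which takes up glutamate and cysteine, was at 46.6 and 41.6 CPM in capillary-like cells and at 39.5 and 38.9 CPM in tip-like cells, but at 5.02 and 5.94 CPM in Plvap-high and 0 and 1.60 CPM in arterial-like cells. It was thus high in 2 of 4 classes, and its fold over all other endothelial cells was 5.37 in WT and 4.03 in VEGF/LysM. Its call as a capillary-like marker was lost with the looser filter, at both other resolutions, with Slc genes left in the clustering and by the mean over cells. Slc43a2, a carrier of large neutral amino acids, was at 29.9 and 32.4 CPM (2.25-fold and 4.28-fold), a call lost with the stricter filter, without doublet removal and after thinning.

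Promoter windows, 250 bases before to 50 after the annotated start in RefSeq (GRCm38.p6), are shown for the capillary-like markers with the most UMIs that have an entry, 5′ to 3′ on the gene's plus strand, as the sequence context of the genes that the class comparison turns on. Capitals mark GGAA or its reverse complement TTCC, the core of the sites bound by ETS factors, a family that is active in endothelium; 96.0% of 32851 windows of that length hold at least 1 of them, with a median of 3, so a match is a description of the window only. The Slc28a2 window (chr2:122426185-122426484) had 5 matches, a GC content of 46.7% and 1 CpG (a C followed by a G), and the Slc39a8 window (chr3:135825029-135825328) 3 matches, 48% and 12 CpG. The medians of all windows were 52.7% GC and 7 CpG.
Slc28a2: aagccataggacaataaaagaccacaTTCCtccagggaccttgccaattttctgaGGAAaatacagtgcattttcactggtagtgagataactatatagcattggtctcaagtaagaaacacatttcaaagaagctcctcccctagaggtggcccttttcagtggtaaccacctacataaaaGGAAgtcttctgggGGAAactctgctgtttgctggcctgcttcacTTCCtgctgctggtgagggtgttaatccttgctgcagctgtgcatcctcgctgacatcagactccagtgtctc
Slc39a8: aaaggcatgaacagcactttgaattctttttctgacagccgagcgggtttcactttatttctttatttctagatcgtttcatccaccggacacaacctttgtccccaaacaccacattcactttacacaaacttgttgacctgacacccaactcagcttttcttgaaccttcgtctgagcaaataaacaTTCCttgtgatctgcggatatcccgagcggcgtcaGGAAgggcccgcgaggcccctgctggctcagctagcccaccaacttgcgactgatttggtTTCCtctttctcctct

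**Figure D2:**
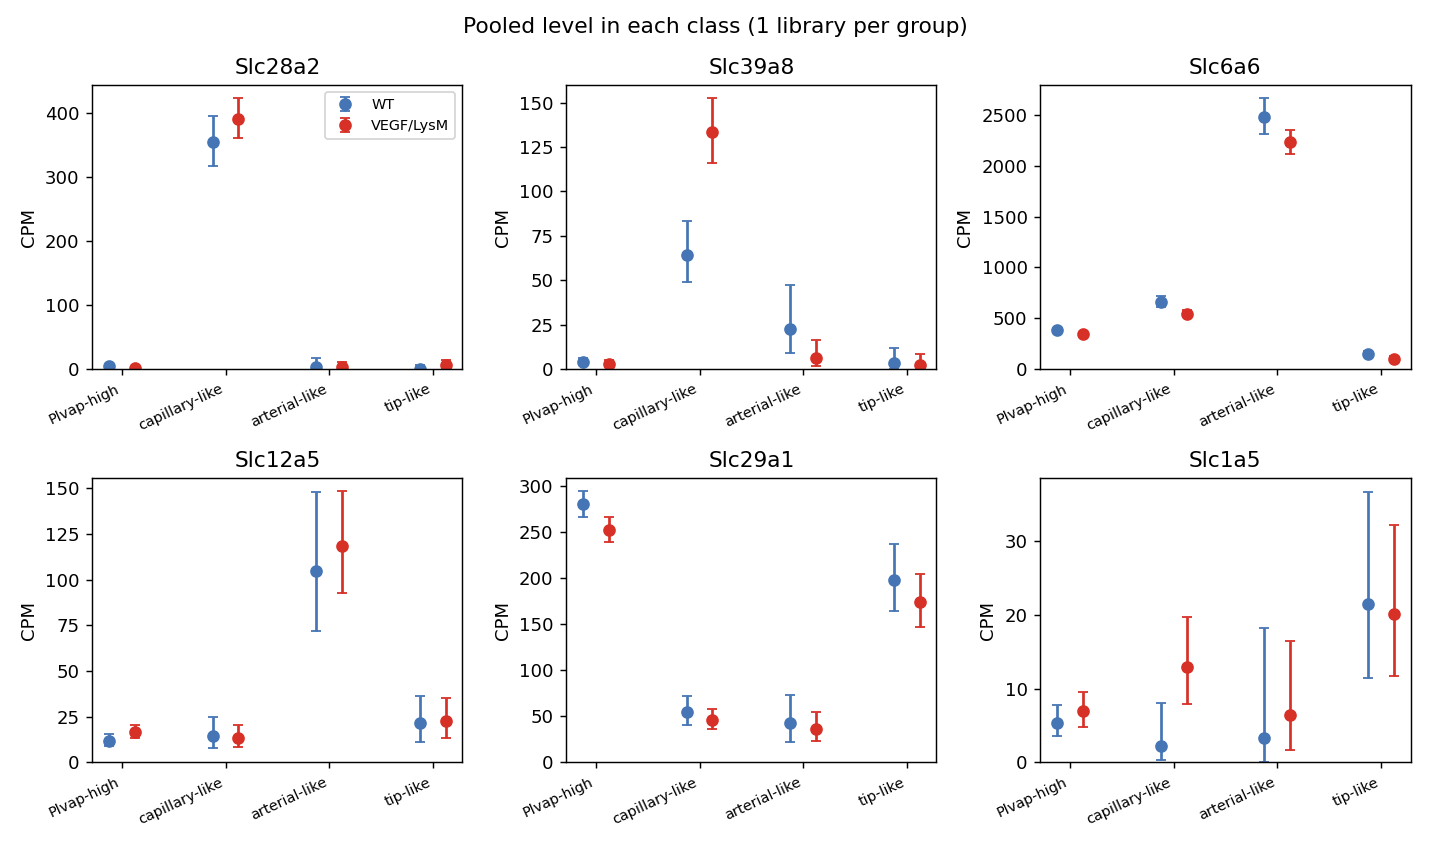
Pooled CPM with 95% Poisson intervals (counting error only) of 6 members in the 4 classes, WT in blue and VEGF/LysM in red, each axis starting at 0. Slc28a2 and Slc39a8 are high in capillary-like cells, Slc6a6 and Slc12a5 in arterial-like cells, Slc29a1 in Plvap-high and tip-like cells (280 and 198 CPM in WT), and the intervals of Slc1a5 are wide.

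Arterial-like cells were marked most clearly by the taurine transporter. Slc6a6 (ENSMUSG00000030096, chromosome 6, 91684053 to 91759066, plus strand) was at 2481 CPM (2307 to 2664) in WT against 2234 CPM (2118 to 2354) in VEGF/LysM arterial-like cells. It was at 659.6 and 547 CPM in capillary-like, 384 and 345 CPM in Plvap-high, and 148 and 101 CPM in tip-like cells. The order of the 4 classes was the same in both libraries and no neighbours in it overlapped by their intervals. The arterial-like level was 5.95-fold (5.48 to 6.44) the other endothelial cells in WT and 5.92-fold (5.55 to 6.30) in VEGF/LysM. At 1000 UMIs per cell, 80.0% of WT and 80.6% of VEGF/LysM arterial-like cells held a Slc6a6 UMI (80.6% and 89.6% unthinned), against 24.4% of Plvap-high cells in each library and 10.7% and 8.33% of tip-like cells.

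Cation-chloride cotransporters were among the arterial-like markers as well. Slc12a5, a potassium-chloride cotransporter best known from neurons (ENSMUSG00000017740, chromosome 2, 164960802 to 164999731, plus strand), was at 105 CPM in WT against 118 CPM in VEGF/LysM, against 11.96 to 22.4 CPM in the other 3 classes; the folds were 7.95 (5.14 to 12.0) and 7.30 (5.42 to 9.76). At equal depth a UMI of it was found in 10.3% and 10.4% of arterial-like cells. Its relative Slc12a8 was at 36 and 27.2 CPM (4.03-fold and 3.21-fold) on 11 and 17 UMIs, a call lost after thinning. These were 2 of the 7 cation-chloride family members measured, and the others marked no class; Slc12a2, which brings sodium, potassium and chloride into the cell, was at 66.8 CPM in WT Plvap-high cells and at 45.8 CPM in WT arterial-like cells.

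A calcium carrier was also high there. Slc8a1, which exchanges sodium for calcium, was at 115 and 161 CPM (4.23-fold and 8.90-fold), but its UMIs sat in few cells: 16 of 253 WT arterial-like cells held its 35 UMIs, 13 of them in 1 cell, and 30 of 251 VEGF/LysM cells held its 101. The 5 cells with the most UMIs carried 62.9% and 40.6% of them, so its Poisson interval is too narrow. Slc8a1 was at 464 and 535 CPM in myeloid-like cells, and the summed list of 10 myeloid markers in arterial-like cells was 98.2 CPM in WT against 169 CPM in VEGF/LysM, with 6 of the 10 at 0. Lyz2, the gene that LysM names, made up 85.1 and 136 CPM of those sums, and was at 0 to 8.87 CPM in the other 3 classes; the part of such RNA in the Slc8a1 level was not tested.

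Sugar-family and inositol carriers were also on the arterial-like list. Slc5a3, a sodium-coupled importer of the osmolyte myo-inositol, was at 65.5 CPM in both libraries (3.00-fold and 3.87-fold). It lies inside the gene Mrps6 on the same strand, whose own level was 13.3 to 39.9 CPM over classes and libraries, so reads of the 2 genes may not be fully told apart. Slc45a4 was at 26.2 and 23.97 CPM (3.62-fold and 3.30-fold) on 8 and 15 UMIs, a call lost after thinning. Just under the limit of 50 UMIs in endothelial cells, and named after its values were seen, the urea transporter Slc14a1 had 14 of 18 WT and 20 of 27 VEGF/LysM endothelial UMIs in arterial-like cells (45.8 and 31.96 CPM), and 0 and 1 UMI in the far more numerous Plvap-high cells.

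Windows of the arterial-like markers Slc12a5 (chr2:164960596-164960895) and Slc5a3 (chr16:92058072-92058371) follow, with the same capitals, to set beside those of the capillary-like genes. They had GC contents of 63.7% and 73.3%, 21 and 38 CpG, and 2 and 3 matches to GGAA or TTCC. CpG content did not follow the class: the arterial-like Slc8a1 and Slc12a8 windows had 9 and 8 CpG, and the capillary-like Slc16a11 and Slc16a1 windows 20 and 42. In all, 123 of the 164 members and 14 of the 20 class markers had an entry; Slc6a6 had none. Where a gene had more than 1 entry, the window nearest to its annotated start is shown.
Slc12a5: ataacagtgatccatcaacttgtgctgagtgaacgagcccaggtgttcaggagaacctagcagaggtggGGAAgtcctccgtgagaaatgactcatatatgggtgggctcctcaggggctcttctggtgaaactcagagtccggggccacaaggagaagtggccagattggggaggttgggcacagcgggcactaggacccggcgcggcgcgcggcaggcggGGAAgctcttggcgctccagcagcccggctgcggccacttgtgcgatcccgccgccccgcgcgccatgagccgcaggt
Slc5a3: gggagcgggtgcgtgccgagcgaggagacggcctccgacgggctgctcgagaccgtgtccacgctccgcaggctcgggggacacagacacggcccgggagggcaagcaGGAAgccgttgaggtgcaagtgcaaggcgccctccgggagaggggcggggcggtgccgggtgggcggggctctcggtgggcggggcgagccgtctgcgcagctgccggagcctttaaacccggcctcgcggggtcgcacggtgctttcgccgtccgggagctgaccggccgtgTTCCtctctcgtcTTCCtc

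**Figure D3:**
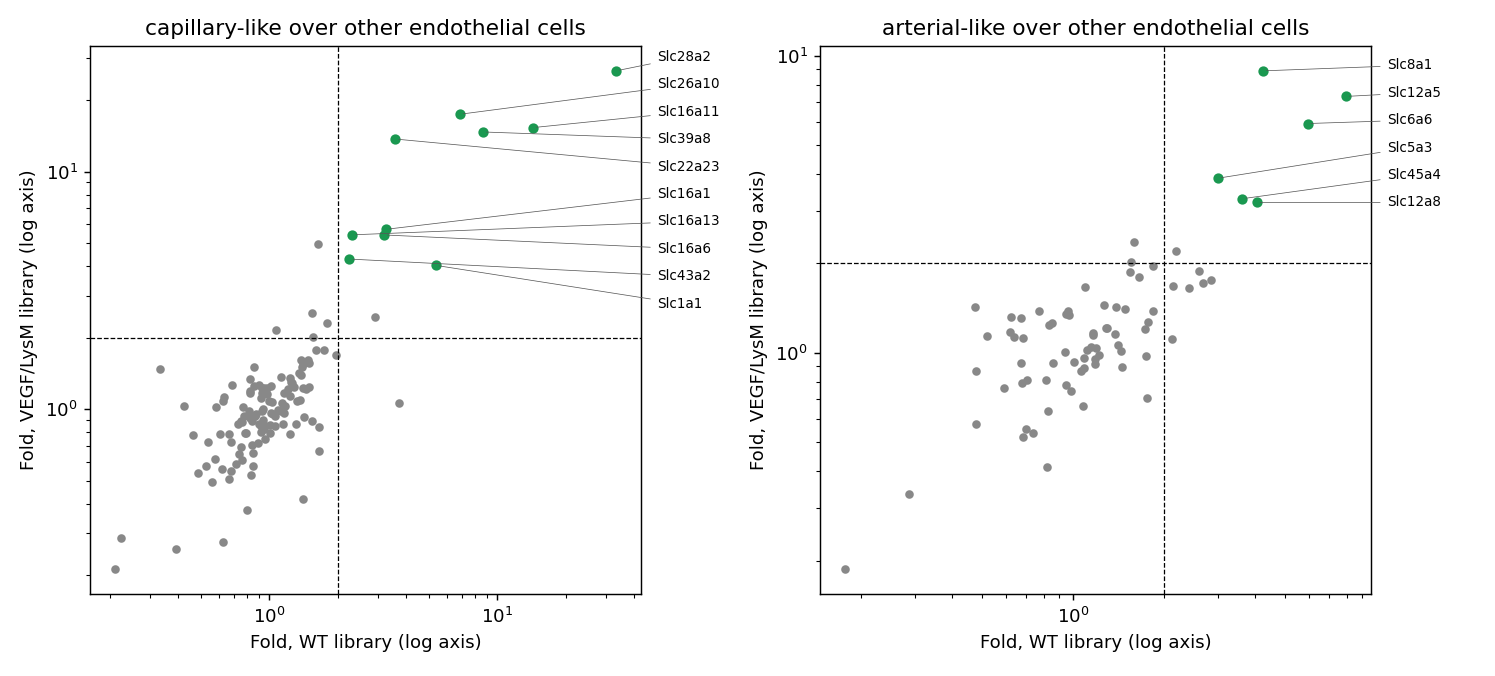
Fold of each member in capillary-like (left) and arterial-like cells (right) over the other endothelial cells, WT on the horizontal and VEGF/LysM on the vertical log axis; green points marked the class, grey points did not, and dashed lines are at 2-fold. Slc28a2 is the outermost green point in capillary-like cells, at 33.2 and 26.5-fold. Slc43a2 and Slc16a13 lie just past the line in WT (2.25 and 2.32-fold). The grey Slc39a14 lies to their right and below them, at 2.90-fold in WT and 2.43-fold in VEGF/LysM. A grey point past both lines had its highest level in another class in at least 1 library.

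Plvap-high cells, the largest class, had few marker carriers and those were small in fold. Slc29a1, which lets nucleosides equilibrate across the membrane (ENSMUSG00000023942, chromosome 17, 45585200 to 45599606, minus strand), was at 279.6 CPM (265 to 294) in WT against 252 CPM (239 to 266) in VEGF/LysM. It was also at 198 and 173 CPM in tip-like cells, and at 54.3 and 45.9 CPM in capillary-like and 42.5 and 36.8 CPM in arterial-like cells, so Plvap-high and tip-like cells were high and the other 2 classes low. Its fold over all other endothelial cells was 2.37 (2.08 to 2.72) in WT and 2.78 (2.46 to 3.14) in VEGF/LysM. Capillary-like cells thus had a high Slc28a2 and a low Slc29a1, and arterial-like cells were low in both. Slc29a3, the third nucleoside carrier measured, differed less, at 16.02 and 15.9 CPM in Plvap-high and 8.87 and 11.6 CPM in capillary-like cells. The highest level of Slc29a3 was in arterial-like cells in both libraries. Slc41a3, of a family of magnesium transporters, was at 11 and 13 CPM (2.66-fold and 2.40-fold). Neither call held in every alternative. Both were lost with the stricter cell filter and when the clusters led by markers of another list were left out. In the last setting the log2 fold of Slc29a1 was 0.58. The call of Slc41a3 was also lost with the looser filter, without doublet removal, after thinning, at resolution 0.7 and by the mean over cells.

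Other members were at least 2-fold higher in Plvap-high cells than in the rest without having their highest level there in both libraries. The riboflavin transporter Slc52a3 was at 27.8 and 28.8 CPM in Plvap-high and at 29.5 and 25.6 CPM in arterial-like cells, against 4.43 and 1.84 CPM in capillary-like cells. Slc4a8, a sodium-dependent bicarbonate exchanger, was at 8.11 and 9.78 CPM, with 0 UMIs in capillary-like cells of both libraries, which allows up to 3.33 and 1.84 CPM. Capillary-like cells held 11 members (7.24%, against 9.47% of all genes) at no more than 0.5 of the level of the other endothelial cells in both libraries, among them Slc29a1, Slc44a2, Slc24a3 and Slc52a3. Plvap-high cells held 12 (7.89%, against 5.33% of all genes), among them Slc28a2, Slc39a8, Slc6a6 and Slc1a1. Arterial-like cells held 9 (5.92%, against 7.28%) and tip-like cells 10 (6.58%, against 5.07%).

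The 6 Plvap-high clusters differed among themselves in a few carriers. Cluster 3, led by Nlgn1, Oit3, Sema3d and Bgn, had 3 members at least 2-fold over the other Plvap-high cells in both libraries: the sodium-calcium exchangers Slc24a3 and Slc8a1 and the vesicular monoamine transporter Slc18a2. Cluster 4, led by Npr3, Cyp26b1 and Esm1, had 3 as well: Slc6a6, Slc45a4 and Slc1a1. Each count was 2.17% of 138 members, and 1.19% and 1.88% of all 11090 genes measured there passed in clusters 3 and 4; no member passed in clusters 1, 7, 8 and 13. Slc6a6 was at 801 and 689 CPM in cluster 4 and 186 and 178 CPM in cluster 3, while Slc29a1 was at 99.0 and 120 CPM in cluster 4 and 390 and 365 CPM in cluster 3. Slc24a3 was at 77.7 and 65.5 CPM in cluster 3 and at 0 UMIs in cluster 1 of both libraries. Clusters 3 and 4 each had 1 gene of the venous or tip list and 0 of the Plvap-high list among their 10 leading genes.

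**Figure D4:**
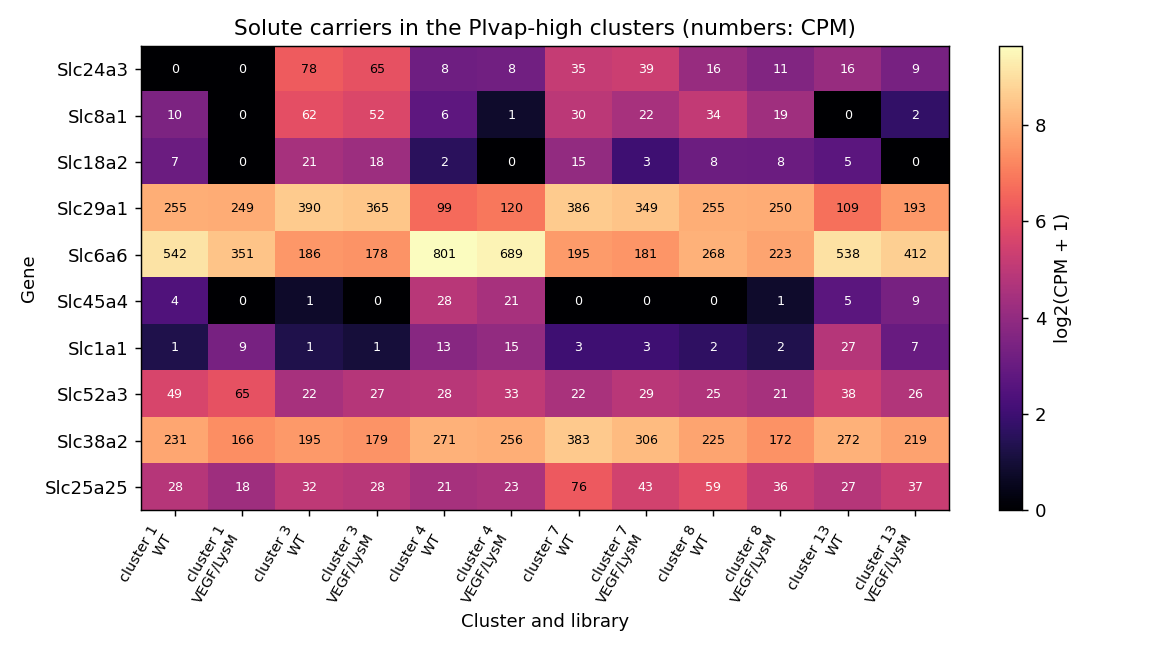
CPM of 10 members in the 6 Plvap-high clusters, by library; the number in each cell is the CPM and the colour is log2(CPM + 1). Slc24a3, Slc8a1 and Slc29a1 are high in cluster 3, and Slc6a6 is lowest in clusters 3 and 7 and highest in cluster 4, in both libraries.

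Tip-like cells were marked by 1 carrier. Slc1a5, an exchanger of neutral amino acids such as glutamine, was at 21.4 CPM (11.4 to 36.6) in WT against 20.1 CPM (11.7 to 32.1) in VEGF/LysM tip-like cells, from 13 and 17 UMIs. It was at 5.40 and 6.90 CPM in Plvap-high, 2.22 and 12.9 CPM in capillary-like, and 3.27 and 6.39 CPM in arterial-like cells, and the intervals of tip-like and capillary-like cells overlap in VEGF/LysM. Its folds were 4.52 and 2.41, and the call was lost when cells were thinned to 1000 UMIs and with the looser cell filter, where another member took its place. At that depth 2.27% and 2.08% of tip-like cells held a UMI of it, against 1.25% and 1.23% of myeloid-like cells. Slc1a1, described above, was the other member at least 2-fold over the rest in tip-like cells in both libraries, and Slc6a6 was lowest there.

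Some large substrate groups showed few class marks or none. Of the 37 mitochondrial carriers (Slc25 family) 36 were measured, and 0 marked a class; their summed level was 1189 and 1188 CPM in Plvap-high, 1275 and 1189 CPM in capillary-like, 1450.0 and 1282 CPM in arterial-like and 1235 and 1169 CPM in tip-like cells. The phosphate carrier Slc25a3 was at 137 to 168 CPM over all classes and libraries. Of 15 zinc carriers only Slc39a8 marked a class by the rule; Slc39a10, an importer, was at 92.2 to 159.8 CPM and Slc30a1, an exporter of the plasma membrane, at 56.5 to 102 CPM. The bicarbonate cotransporter Slc4a7 was at 65.5 and 68.7 CPM in arterial-like and 41.7 and 30.5 CPM in Plvap-high cells. Slc24a5, at 19.6 to 59.3 CPM, overlaps Myef2 on the opposite strand, which was at 45.5 to 68.4 CPM. Whether reads of the 2 genes mix was not tested.

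Other members differed between classes without marking one by the rule. Vitamin C transporter Slc23a2 was at 122 and 119.8 CPM in Plvap-high, 153 and 180.5 CPM in tip-like and 59.9 and 65.5 CPM in capillary-like cells, and the haem transporter Slc48a1 at 95.3 and 87.5 CPM in capillary-like and 31.3 and 35.4 CPM in tip-like cells. Slc43a3 was at 567 and 571 CPM in Plvap-high and 147 and 161 CPM in arterial-like cells, with capillary-like and tip-like cells between them. Its arterial-like level was no more than 0.5 of that of the other endothelial cells in both libraries. Slc3a2, the heavy chain that amino acid exchangers need to reach the membrane, was at 203 and 248 CPM in arterial-like and 74.3 and 82.0 CPM in capillary-like cells, whereas its partner Slc7a5 had 37 UMIs in all endothelial cells and was not compared. Among sugar carriers Slc50a1 was at 77.0 and 109 CPM in Plvap-high and 144 and 133 CPM in arterial-like cells.

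Carriers outside the Slc symbols were read from a list of 16 accessory and transport genes, of which 11 were measured. The fatty acid receptor Cd36, the efflux pump gene Abcb1b and the organic anion transporter Slco2b1 marked capillary-like cells (Cd36 by use as a marker, Slco2b1 at 263 and 223 CPM). Arterial-like cells were marked by the water channel Aqp1 (4288 and 4144 CPM) and the efflux pump gene Abcb1a (314 and 358 CPM). Both were also high in capillary-like cells, Aqp1 at 1915 and 1992 CPM and Abcb1a at 133 and 132 CPM. The prostaglandin transporter Slco2a1 (259 and 248 CPM) marked arterial-like cells as well, and Slco3a1 (252 and 236 CPM) marked Plvap-high cells. In tip-like cells 0 of the 11 did, beside 0.814% of all genes tested. That share was 3.94% for capillary-like, 3.05% for arterial-like and 2.09% for Plvap-high cells. The list was chosen with earlier results of these data known, so its counts are not a result about such carriers.

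Between the libraries the members as a group lay close to all genes. The median log2 ratio of VEGF/LysM over WT was -0.08 in Plvap-high cells over 138 members (all genes -0.04), -0.07 in capillary-like cells over 86 (all genes -0.02), -0.08 in arterial-like cells over 33 (all genes -0.01) and -0.03 in tip-like cells over 54 (all genes -0.02). A member was counted as different when its pooled level differed by at least 1.5-fold on at least 50 UMIs in the class. Most counts below are near the share of all genes that pass, and such a share is not a result about the members.

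**Figure D5:**
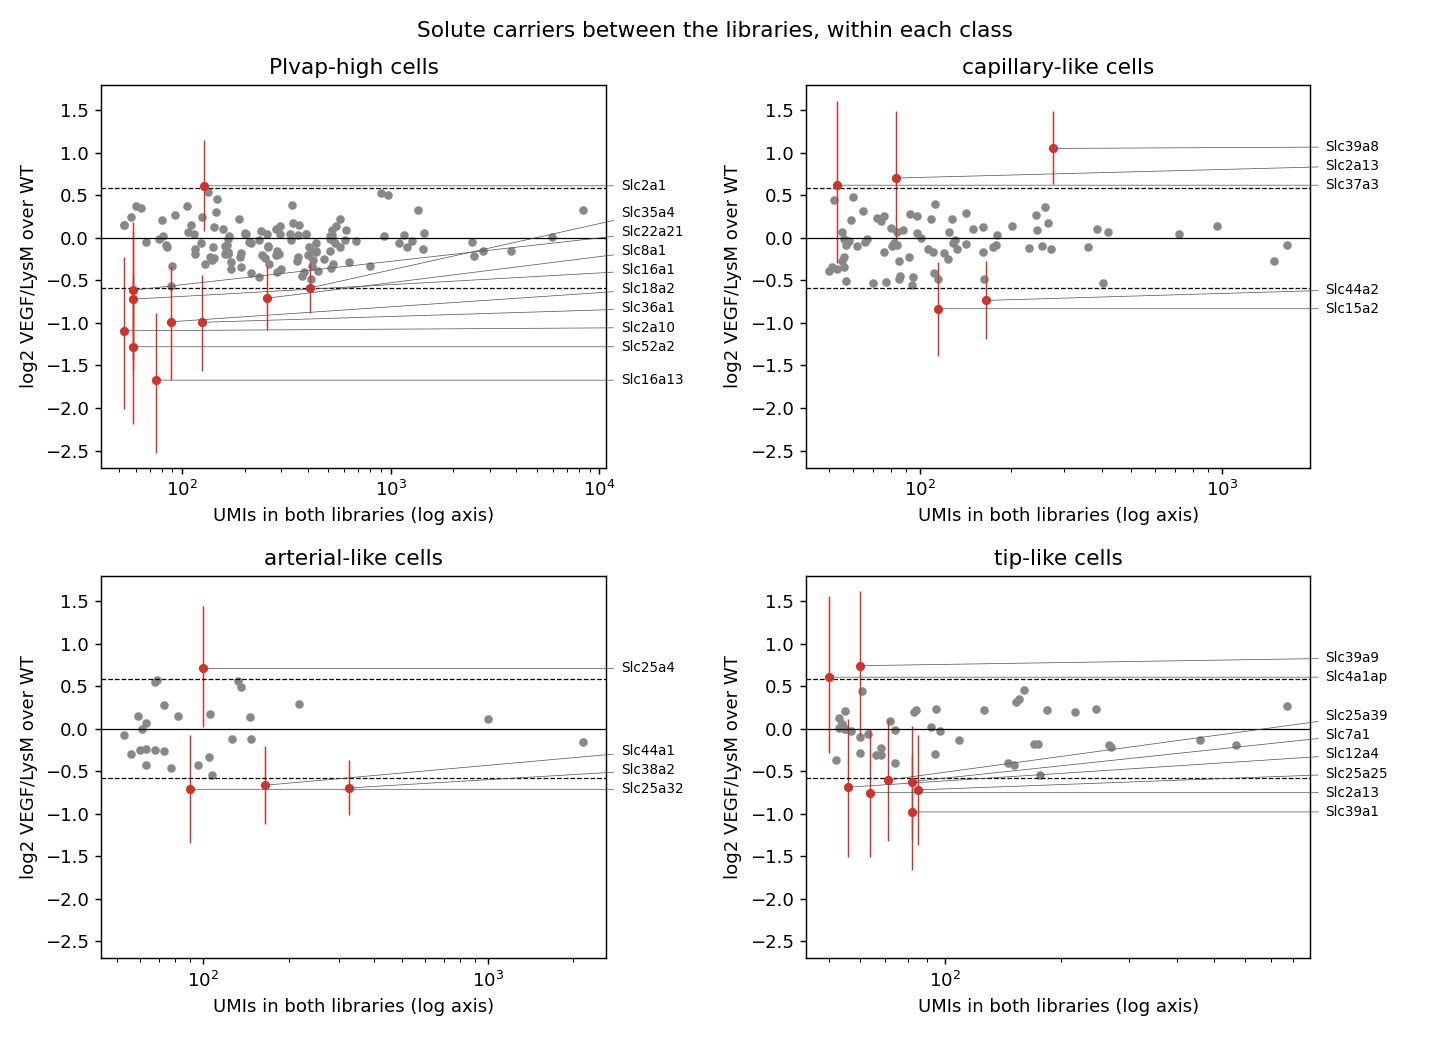
Log2 ratio of VEGF/LysM over WT of each member with at least 50 UMIs in a class, against its UMIs in both libraries (log axis); red points with 95% counting intervals are past 1.5-fold (dashed lines), grey points are not. Most red points have few UMIs and wide intervals; Slc39a8 in capillary-like cells, at 1.05, has an interval that stays above the 1.5-fold line.

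In capillary-like cells 3 of 86 members were higher in VEGF/LysM (4.47% of all genes there) and 3 lower (4.73%). Slc39a8 (ENSMUSG00000053897, chromosome 3, 135825279 to 135888572, plus strand) was at 64.3 CPM (48.8 to 83.1, 58 UMIs) in WT against 133 CPM (116 to 152, 218 UMIs) in VEGF/LysM, a log2 ratio of 1.05 (0.63 to 1.497). In the other classes the VEGF/LysM value was not above the WT value: 4.25 and 3.07 CPM in Plvap-high, 22.9 and 6.39 CPM in arterial-like, and 3.29 and 2.36 CPM in tip-like cells. The ratio stayed between 0.66 and 1.07 over the alternatives. The added UMIs were uneven over cells: 13 of 723 VEGF/LysM cells held at least 5 Slc39a8 UMIs, up to 9, and 0 of 775 WT cells did, where the most was 3. At 1000 UMIs per cell the share of capillary-like cells with a UMI was 6.48% (4.06 to 9.74) in WT and 7.66% (5.72 to 10.0) in VEGF/LysM, which overlap, beside unthinned shares of 6.32% and 11.9%; with UMIs gathered in few cells, the counting interval of the ratio is too narrow.

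Slc28a2, the leading capillary-like carrier, was within 1.5-fold between the libraries in that class, as its 355 and 391 CPM show. The others past 1.5-fold higher in capillary-like cells were the myo-inositol transporter Slc2a13 (23.3 and 37.9 CPM, log2 0.70, -0.03 to 1.49) and Slc37a3 (15.5 and 23.9 CPM, 0.62, -0.29 to 1.62), whose intervals include equal levels. Lower were the peptide transporter Slc15a2 (63.2 and 35.5 CPM, -0.83, -1.38 to -0.28) and the choline transporter-like gene Slc44a2 (87.6 and 52.6 CPM, -0.73, -1.19 to -0.28). With cells thinned to 1000 UMIs, 0 of the 3 lower members kept the call: the ratio of Slc15a2 was -0.02 on 40 UMIs, and that of Slc44a2 was -0.44. Slc44a2 was also short of 1.5-fold with the stricter filter (-0.35) and with the Cd36 and Fbln5 cluster added (-0.57). Slc2a13 and Slc37a3 each lost the call in 6 alternatives. Beside these, the summed adrenocortical markers were at 377 CPM in WT against 248 CPM in VEGF/LysM capillary-like cells, the fenestrated list at 4268 and 3444 CPM and the immediate-early genes at 1597 and 780 CPM; in Plvap-high cells Slc44a2 was at 240.5 and 233 CPM. The part of RNA or cells of other types was not tested.

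In arterial-like cells 1 of 33 members was higher (6.96% of all genes) and 3 were lower (6.07%). Slc38a2, which imports small neutral amino acids, was at 471 CPM (144 UMIs) in WT against 291 CPM (182 UMIs) in VEGF/LysM, a log2 ratio of -0.70 (-1.02 to -0.37) that ran from -0.82 to -0.64 over the alternatives. It was lower in VEGF/LysM in the other classes as well, at 259 and 223 CPM in Plvap-high, 197 and 137 CPM in capillary-like, and 333 and 303 CPM in tip-like cells, and in 6 of the 6 Plvap-high clusters. The choline transporter-like gene Slc44a1 (236 and 149 CPM, -0.67, -1.12 to -0.20) and the mitochondrial folate carrier Slc25a32 (131 and 79.9 CPM, -0.71, -1.34 to -0.08) were lower, and the ADP/ATP carrier Slc25a4 was higher (75.3 and 123 CPM, 0.71, 0.02 to 1.45). Immediate-early genes, which also respond to tissue handling, summed to 1964 CPM in WT against 1310 CPM in VEGF/LysM arterial-like cells; their part in these ratios was not tested. Slc6a6 itself differed by less than 1.5-fold.

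In Plvap-high cells 1 of 138 members was higher (1.95% of all genes) and 9 were lower (3.18%), which is 6.52% of the members. The class compares 6 clusters that the libraries filled unequally: cluster 1 made up 19.04% of it in WT and 7.02% in VEGF/LysM, and cluster 8 15.3% and 24.3%. Ratios with the clusters in the same mix in both libraries (their mean shares) stand beside the pooled ones for that reason. The glucose transporter Slc2a1 was the member that was higher, at 9.65 CPM (50 UMIs) and 14.8 CPM (77 UMIs), a log2 ratio of 0.61 (0.08 to 1.16), or 0.85 with the same mix, and it was higher in all 4 clusters with at least 20 of its UMIs. It kept its direction over the alternatives but lost the call in 3: it was at 0.56 with the looser filter and at 0.58 without clusters 3 and 4, and after thinning it had 42 UMIs, under the minimum. It was also higher in VEGF/LysM in the other 3 classes, with few UMIs: 5.54 and 7.34 CPM in capillary-like, 9.82 and 15.98 CPM in arterial-like and 4.94 and 12.98 CPM in tip-like cells.

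The members lower in Plvap-high cells were mostly low in UMIs. Slc16a13 was at 11 and 3.45 CPM (57 and 18 UMIs), with a log2 ratio of -1.67 (-2.52 to -0.89) and -1.86 with the same mix, whereas in capillary-like cells it was at 25.5 and 23.9 CPM. The riboflavin transporter Slc52a2 was at 7.91 and 3.26 CPM (-1.28, -2.19 to -0.43), and at 12.2 and 17.7 CPM in capillary-like cells. The lysosomal amino acid carrier Slc36a1 was at 16.02 and 8.05 CPM (-0.99, -1.56 to -0.44), and Slc18a2 at 11.4 and 5.75 CPM (-0.99, -1.67 to -0.33). Slc8a1 was at 30.7 and 18.8 CPM (-0.71, -1.09 to -0.34), or -0.55 with the same mix, and it was lower in 3 of 3 clusters with at least 20 UMIs. The remaining 4 had ratios between -1.09 and -0.59; the one with the most UMIs, Slc35a4 of the nucleotide sugar family, was at 47.3 and 31.4 CPM and lower in 5 of 6 clusters, lost the call in 7 alternatives, and overlaps Apbb3. Without clusters 3 and 4 the count of lower members was 4, and with a minimum of 100 UMIs it was 3.

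In tip-like cells 2 of 54 members were higher (4.71% of all genes) and 6 were lower (3.98%), all on 50 to 85 UMIs. Among zinc transporters, Slc39a1 was at 79.1 and 40.1 CPM (-0.98, -1.66 to -0.32; -0.26 with the looser filter). Slc39a9 was at 29.6 and 49.5 CPM (0.74, -0.09 to 1.63), an interval that includes equal levels, and its ratio fell to 0.16 with the looser filter. Slc2a13 was at 57.6 and 34.2 CPM (-0.75, -1.51 to -0.0007), and its call was lost in 6 alternatives. The calcium-regulated mitochondrial carrier Slc25a25 was at 75.8 and 46.01 CPM (-0.72, -1.37 to -0.07). The arginine transporter Slc7a1 was at 70.8 and 46.01 CPM (-0.62, -1.29 to 0.04). The mitochondrial glutathione carrier Slc25a39 was at 60.9 and 40.1 CPM (-0.60, -1.32 to 0.11). The non-carrier Slc4a1ap was higher, at 26.4 and 40.1 CPM (0.61, -0.29 to 1.56), and Slc12a4 was the sixth that was lower. These values are weak: with a minimum of 100 UMIs 0 members were past 1.5-fold in tip-like cells in either direction, the ratio of Slc25a25 changed direction in 2 alternatives (0.13 and 0.04), and that of Slc25a39 in 1 (0.012). The calls of the higher members Slc39a9 and Slc4a1ap were lost in 6 and 9 alternatives, mostly because too few UMIs were left for the minimum, and that of Slc25a39 in 8. Slc39a9 overlaps Erh, whose level was 21.4 and 43.7 CPM in tip-like cells, and Slc25a25 overlaps Naif1.

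Over all endothelial cells 6 of 152 members were higher in VEGF/LysM (3.10% of all genes) and 6 lower (3.04%), and some of these values carry the change in class mix. Slc28a2 was at 52.8 CPM (389 UMIs) in WT against 83.9 CPM (746 UMIs) in VEGF/LysM, a log2 ratio of 0.67 (0.49 to 0.85), but 0.11 with the clusters in the same mix. Slc39a8 was at 14.4 and 31.9 CPM, a ratio of 1.15 (0.82 to 1.48) and 0.79 with the same mix. Slc2a1 (0.63), Slc1a5 (0.63) and Slc22a23 (0.76) gave 0.87, 0.67 and 0.43 with the same mix. Of those that were lower, Slc9a9, a sodium-proton exchanger of endosomes, went from -0.69 to -0.11, while Slc36a1 (-0.64), Slc16a13 (-0.68), Slc18a2 (-0.75) and Slc22a21 (-0.70) gave -0.54, -0.86, -0.55 and -0.61. Of the 11 carriers outside the Slc symbols, 3 were past 1.5-fold lower in Plvap-high cells (3.18% of all genes there were). These were Aqp1 (29.7 and 17.8 CPM), Abcb1a (7.91 and 4.60 CPM) and Cd36 (83.2 and 41.4 CPM), all far higher in arterial-like or capillary-like cells. Slco3a1 was lower in capillary-like cells (47.7 and 30.6 CPM), as were 4.73% of all genes there.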

How the data were processed

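Single-cell RNA-seq of sorted adrenal endothelial cells was analysed from the authors' deposited UMI counts per gene and barcode (10x Genomics; Cell Ranger 7.0.1, Seurat and mm10 per the submitters' processing notes, Cell Ranger 7.0.0 per the file headers). The sources used here do not say whether intronic reads were counted. A barcode was kept from 500 UMIs and 300 genes upward if its mitochondrial share was no more than 15%, which removed 142 in WT and 14 in VEGF/LysM. Scrublet's automatic threshold called only 1 and 2 doublets, so the highest scores were left out at 0.8% per 1000 barcodes (315 and 116). Counts were log-normalized to 10000, and 2000 variable genes without Slc genes, 30 components, 15 neighbours and Leiden clustering at resolution 1 were used (scanpy 1.11.5, igraph 0.11.9). Clusters were named from marker lists by mean log2 enrichment of at least 1 and leading genes. Of 17 lists, the endothelial, fenestrated and immediate-early ones took no part in naming. Clusters with no list at that enrichment were grouped as Plvap-high at 700 CPM or more of Plvap. These limits were set after clusters were seen. Raw counts were summed per class and library and divided by their total (CPM). Intervals are exact Poisson for levels, Clopper-Pearson for shares and conditional binomial for ratios, at 95%. No count test (edgeR or DESeq2) was possible with 1 library per group. The code was tested on simulated counts.

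Named were, per class, up to 8 markers by the smaller of both libraries' folds, up to 5 members higher and 5 lower in VEGF/LysM by the interval bound nearest to equal levels, and per substrate group with at least 3 members the 2 with the most UMIs; others are named to complete a group. All 164 members were found in GENCODE M21 (GRCm38), where 79 overlap another gene. The members and lists were chosen with earlier results of these data known. Alternatives were other cell filters, no doublet removal, thinning, resolutions 0.7 and 1.5, Slc genes left in, a minimum of 100 UMIs, the mean over cells, median-ratio scaling and the same mix of clusters (mean shares) in both libraries. A few members are counted but not reported by name here, and are not drawn.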

Additional observations from a re-analysis of the deposited data

Results flagged for a closer look

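The myo-inositol transporter Slc2a13 was past 1.5-fold in opposite directions in 2 classes. Its log2 ratio of VEGF/LysM over WT was 0.70 (-0.03 to 1.49) in capillary-like cells (21 and 62 UMIs). In tip-like cells it was -0.75 (-1.51 to -0.0007, 35 and 29 UMIs). The first interval includes equal levels and the second nearly reaches them. Each call was lost in 6 alternatives, in tip-like cells 5 times for too few UMIs. In Plvap-high cells Slc2a13 was at 49.8 and 50.8 CPM, with no such difference. The difference between the classes was not tested, and over the alternatives the ratio ran from 0.25 to 0.73 in capillary-like and from -1.56 to -0.45 in tip-like cells. The gene's UMIs came from 20 WT and 43 VEGF/LysM capillary-like cells.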

How the results depend on the processing

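No paired analysis was possible because each group has 1 library. Of 51 named values (18 marker folds and 33 library ratios), 2 changed direction: Slc25a25 in tip-like cells gave 0.13 with the looser cell filter and 0.039 at resolution 1.5, and Slc25a39 there gave 0.012 at resolution 1.5. Of the 18 marker folds, 14 stayed at 2 or more under each alternative; Slc29a1, Slc41a3, Slc16a6 and Slc1a5 did not. A call also needs the highest level of the 4 classes, which Slc1a1 lost under some alternatives and Slc1a5 with the looser filter. Of 14 counts, the markers of arterial-like cells (5 to 8), the members lower in arterial-like cells (2 to 4) and those lower over all endothelial cells (4 to 7) stayed within 1.5 times the reported count; the others moved further under the settings below. Their cause was not tested, except that a higher minimum and thinning leave fewer members to compare.

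Markers of Plvap-high cells numbered 1 with the looser filter and at resolution 0.7, and 0 with the stricter filter and without the clusters led by markers of another list; the last setting was chosen after seeing the data. Markers of capillary-like cells numbered 6 after thinning, and markers of tip-like cells 0 after thinning and 2 at resolution 0.7 and by the mean over cells. Members higher in VEGF/LysM in Plvap-high cells numbered 0 (looser filter), 5 (stricter filter), 3 (thinning), 2 (mean over cells) and 3 (same cluster mix). Lower ones numbered 3 with a minimum of 100 UMIs and 4 without those clusters, where only 2 of the 4 were reported members. In capillary-like cells higher members numbered 1 with the 100 UMI minimum and 6 by the mean over cells, and lower ones 8 (looser), 6 (stricter), 11 (no doublet removal), 6 (resolution 0.7), 5 (Slc genes left in), 8 (mean over cells) and 5 with the Cd36 and Fbln5 cluster added, a setting chosen after seeing the data. In arterial-like cells higher members numbered 2 (looser), 3 (stricter), 0 (thinning), 2 at either other resolution, 3 (Slc genes left in), 4 (mean over cells) and 2 (median-ratio scaling). In tip-like cells higher members numbered 1 in 6 settings (looser, stricter, no doublet removal, thinning, resolution 1.5, Slc genes left in) and 0 with the 100 UMI minimum, and of those 6 settings only the last kept a reported member, Slc39a9; lower ones numbered 3 (looser, stricter, no doublet removal), 1 (thinning) and 0 (100 UMI minimum). Over all endothelial cells higher members numbered 3 with the looser filter and with the same cluster mix. That mix gives no other value for capillary-like, arterial-like and tip-like cells, each of which is 1 cluster.

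WT cells were the shallower, with a median of 1155 UMIs against 2285 in endothelial cells, so members with few UMIs are the least certain in WT capillary-like and arterial-like cells. Gene length and the library ratio had a Spearman correlation across members of -0.12 in Plvap-high cells (all genes -0.20); members are not independent replicates.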

Other observations

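Some cells passed the gate without being endothelial. In adrenocortical-like cells (32 WT and 44 VEGF/LysM cells) 3 of the 29 members with at least 20 UMIs there were at least 5-fold over endothelial cells in both libraries (8.51% of all genes with that many UMIs were): the fatty acid transport family gene Slc27a3 (59.1 and 62.0 CPM), the sodium-potassium-chloride cotransporter Slc12a2 (449 and 609 CPM) and the arginine transporter Slc7a1 (319 and 186 CPM). In myeloid-like cells (89 and 84 cells) there were 8 of 72 (7.04% of all genes), led by Slc11a1, a metal transporter of phagosomes (141 and 116 CPM), and the amino acid transporter Slc7a8 (81.7 and 62.3 CPM). The others were Slc16a10, Slc8a1, Slc9a9, Slc38a1, the iron exporter Slc40a1 (33.4 and 32.2 CPM) and Slc29a3. Slc12a2 and Slc7a1 were also at 66.97 and 49.99 CPM in WT endothelial cells, and the part of free adrenocortical RNA in that level was not tested.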
